A study of Mus musculus with 20 samples.

Results

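The erythropoietin receptor and the genes that carry and restrain its signal were followed in bone marrow and kidney of mice given oxaliplatin, a platinum drug that damages DNA. The set held 10 genes of the 55486 in the count tables, chosen by symbol: the receptor Epor, the kinase Jak2, the transcription factors Stat5a and Stat5b, the feedback genes Cish, Socs1, Socs2 and Socs3, the kinase Pim1 and the hormone gene Erfe. All 10 were found in both tissues, and all 10 had enough counts to be tested in each. The vehicle groups were C57BL/6 mice given 5% dextrose for 8 weeks, and the oxaliplatin groups were C57BL/6 mice given the drug at 10 mg/kg in the same dextrose over those 8 weeks. There were 5 vehicle and 5 oxaliplatin libraries for each tissue, 20 in all, each from 1 mouse. By the methods, animals of both sexes entered at 10 weeks of age, and leg bones (tibia, femur) gave the marrow 6 days after dosing ended. Every library carried reads from Y-linked genes, so none looked female. Sums of 4 such genes were 156 to 173 CPM in vehicle marrow and 99.1 to 165 CPM in oxaliplatin marrow. In kidney they were 82.3 to 106 CPM with vehicle and 77.5 to 110 CPM with oxaliplatin. The labels do not tie kidney and marrow libraries to one animal, and mice with equal numbers in the vehicle and oxaliplatin groups are different mice.

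Erythropoietin is a hormone made mainly in the kidney, and its receptor sits on erythroid progenitors in bone marrow. Binding brings together receptor-bound JAK2 molecules, which phosphorylate the receptor and STAT5, and STAT5 then enters the nucleus and switches on genes for survival and for its own restraint. CISH and the SOCS proteins, made from those genes, bind the receptor or JAK2 and damp the signal. PIM1 is a survival kinase induced by the same route. Erythroferrone, the product of Erfe, is secreted by erythroblasts under erythropoietin and lowers hepcidin in the liver, which frees iron for hemoglobin.

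Total counts ranged from 31062858 to 39293176 in vehicle marrow, from 30660153 to 41140527 in oxaliplatin marrow, from 24393007 to 28304953 in vehicle kidney and from 26314983 to 30925430 in oxaliplatin kidney. Levels are given as CPM after TMM scaling of library sizes, and 3 counts corresponded to between 0.0668 and 0.0975 CPM in marrow and between 0.0900 and 0.130 CPM in kidney, a floor that covers counting error only. Fold changes and two-sided adjusted p values came from edgeR (quasi-likelihood F test, Benjamini-Hochberg over every tested gene), and "called" means an adjusted p below 0.05 together with more than a 1.5-fold change. The median log2 fold change over all tested genes was -0.04 in marrow and 0.02 in kidney, and it moved to 0.11 and 0.16 when libraries were scaled by their totals alone.

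Promoter sequence was at hand for 9 of the 10 genes as 12 windows of RefSeq (GRCm38.p6), each reaching from 250 bases before an annotated start to 50 bases after it. Socs2 had none. Each window was searched on both strands for TTCNNNGAA, the palindromic letters that STAT proteins favour, and for AGATAA, letters that GATA factors favour. The Cish and Epor windows are shown because Cish had the only pair of STAT matches among the members and Epor the only GATA match. Capitals mark the matches. The Cish window is chr9:107296409-107296708 on the plus strand, and the Epor window is chr9:21963527-21963826 on the minus strand, each written 5′ to 3′ along its gene.
Cish: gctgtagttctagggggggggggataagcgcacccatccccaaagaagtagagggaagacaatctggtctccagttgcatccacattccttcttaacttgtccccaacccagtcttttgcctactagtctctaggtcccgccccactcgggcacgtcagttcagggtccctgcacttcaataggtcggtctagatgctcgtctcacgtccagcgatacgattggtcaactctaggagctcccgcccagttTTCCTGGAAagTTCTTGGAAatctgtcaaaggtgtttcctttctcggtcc
Epor: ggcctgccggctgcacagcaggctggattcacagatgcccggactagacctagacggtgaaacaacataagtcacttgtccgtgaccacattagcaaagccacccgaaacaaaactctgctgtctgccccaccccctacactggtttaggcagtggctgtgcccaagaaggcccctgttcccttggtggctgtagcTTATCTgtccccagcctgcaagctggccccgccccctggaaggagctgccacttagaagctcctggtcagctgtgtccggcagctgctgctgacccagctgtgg

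In Cish the first match, TTCCTGGAA, began at the annotated start itself, and the second, TTCTTGGAA, began 11 bases further on. Of 32851 mouse windows of this length, 8.3% held at least 1 such match and 0.457% held 2 or more. The Socs3 window (chr11:117969317-117969616, minus strand) held 1 STAT match, 154 bases before the start. In Epor the GATA letters AGATAA lay on the strand opposite the gene, so the printed strand reads TTATCT, 54 bases before the start. Of all windows, 11.2% held at least 1 such match. The windows of Jak2, Stat5a, Stat5b, Socs1, Pim1 and Erfe held neither motif. A match describes letters only, and binding was not measured.

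In bone marrow the receptor fell, and 3 of the 4 inhibitor genes rose together with Erfe. Epor was lower after oxaliplatin while Cish, Socs2, Socs3 and Erfe were between 3.35 and 5.79 times higher, and Jak2, Stat5a and Stat5b stayed within 1.5-fold. Of the 10 members, 4 were called higher, where 11.6% of the 22363 genes tested were called higher, and 1 was called lower, where 11.8% were (23.3% either way). Another 2, Stat5a and Pim1, passed the adjusted p alone, which 33.1% of all genes did with or without the fold. Without overlap between the groups, 5 members were higher (11.4% of all genes) and 1 lower (13.5%). The median log2 fold change of the members was 0.46. Scaled by library totals alone, 3431 genes were called higher and 1984 lower in place of 2589 and 2632, and each of these 5 member calls kept its direction. In bulk tissue, fewer cells of a type and less RNA per cell cannot be told apart.

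**Figure D1:**
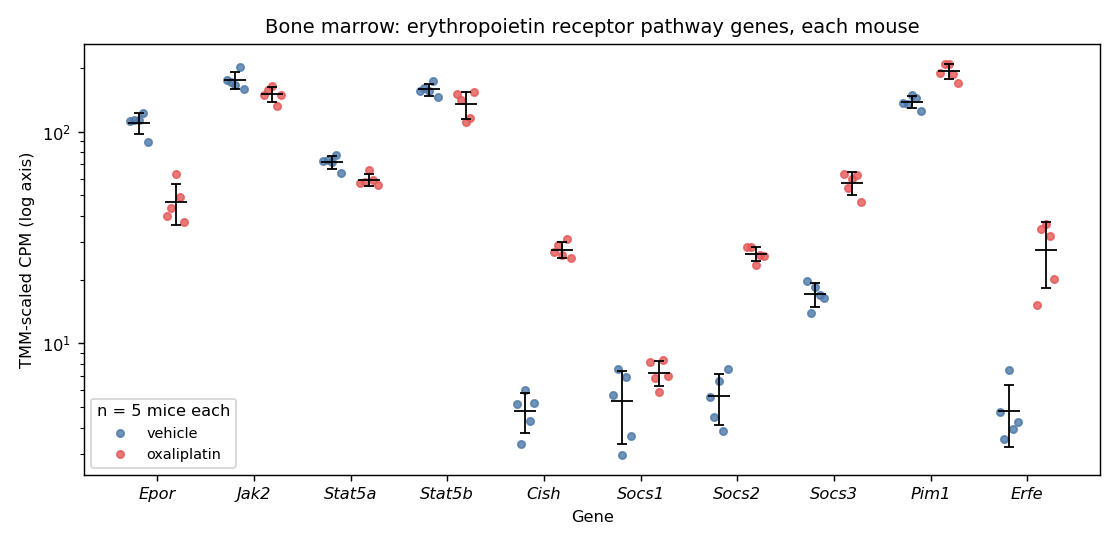
TMM-scaled CPM (log axis) of the 10 genes in each of 5 vehicle and 5 oxaliplatin bone marrow libraries. Points are mice, and bars give the mean and SD. Cish, Socs2, Socs3 and Erfe lie higher and Epor lower after oxaliplatin with no overlap, and Pim1 is higher by a smaller step.

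Epor (chr9:21958897-21963506, minus strand, GRCm38), the receptor itself, stood at 112, 114, 113, 122 and 89.4 CPM in the vehicle mice and at 39.8, 43.5, 63.2, 49.0 and 37.3 CPM in the oxaliplatin mice. The lowest vehicle mouse was above the highest oxaliplatin mouse. The log2 fold change was -1.24 (SE 0.14, adjusted p = 2.25e-05).

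Jak2 (chr19:29251828-29313080, plus strand), the kinase bound to the receptor, had a mean of 175 ± 16.3 CPM (SD, n = 5) with vehicle and 150.3 ± 12.3 CPM with oxaliplatin. These groups overlapped, and the log2 fold change of -0.22 (SE 0.092) did not pass (adjusted p = 0.0853). Stat5b (chr11:100780731-100850724, minus strand) had 158 ± 10.5 and 135 ± 19.8 CPM, a log2 fold change of -0.23 (SE 0.11, adjusted p = 0.112). Its paralog Stat5a (chr11:100859351-100885169, plus strand) had 71.9 ± 5.09 and 59.2 ± 4.05 CPM. That difference passed the adjusted p (0.0176) at a log2 fold change of -0.28 (SE 0.082), below 1.5-fold. Among other settings, it missed with DESeq2's size factors in place of TMM (adjusted p = 0.0534) and with library totals alone (0.207). It also missed with the Y-linked covariate (0.0818) and without oxaliplatin mouse 5 (0.101). Conversely, Stat5b passed the adjusted p with the Y-linked covariate (0.0189), and Jak2 passed it without oxaliplatin mouse 3 (0.0409). Stat5a and the neighbouring Stat3 overlap by 72 bases. For all 3 genes the range of the fold change within 2 SE stayed inside 1.5-fold, the widest being Stat5b at -0.45 to -0.02 on the log2 scale.

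Cish (chr9:107296026-107302784, plus strand), which encodes an inhibitor that competes with STAT5 for the receptor, read 5.16, 3.35, 6.05, 4.30 and 5.20 CPM with vehicle. After oxaliplatin it read 27.1, 29.0, 26.2, 31.0 and 25.2 CPM. Every oxaliplatin mouse was far above every vehicle mouse, and the 5 oxaliplatin values differed little among themselves. The log2 fold change was 2.53 (SE 0.15, adjusted p = 1.71e-07), a 5.76-fold rise. The annotated pseudogene Gm17040 lies across Cish over 1167 bases and rose from 0.0378 to 0.466 CPM (log2 fold change 3.53, adjusted p = 0.00659), and whether the counting used strand is not given in the sources used here, so reads of such pairs may be split or lost.

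Socs2 (chr10:95385362-95417180, minus strand), best known as the brake on growth hormone signalling, read 5.57, 4.48, 6.62, 3.85 and 7.57 CPM with vehicle and 28.7, 28.4, 23.5, 26.1 and 25.9 CPM with oxaliplatin. Its groups did not overlap either, and the log2 fold change was 2.24 (SE 0.17, adjusted p = 1.09e-06), or 4.72-fold. Socs3 (chr11:117966079-117970047, minus strand), which binds JAK2 and cytokine receptors, read 19.7, 14.0, 18.4, 16.9 and 16.3 CPM with vehicle. With oxaliplatin the values were 63.2, 54.2, 59.7, 62.5 and 46.3 CPM, and the groups again did not overlap. The log2 fold change was 1.74 (SE 0.12, adjusted p = 4.44e-07), or 3.35-fold.

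Socs1 (chr16:10782240-10785536, minus strand), the fourth inhibitor and a direct blocker of JAK kinases, did not share that step. Its 5 vehicle mice spread from 2.96 to 7.57 CPM around a mean of 5.36 ± 2.01, and the oxaliplatin mice from 5.92 to 8.32 CPM around 7.25 ± 0.985. The groups overlapped, and the log2 fold change was 0.44 (SE 0.24, adjusted p = 0.197), with 2 SE reaching from -0.05 to 0.92.

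Pim1 (chr17:29490753-29496112, plus strand) read 137, 135, 148, 144 and 125 CPM with vehicle and 190, 210, 209, 188 and 171 CPM with oxaliplatin. Every oxaliplatin value was higher than every vehicle value, yet the step was 1.40-fold (log2 fold change 0.49, SE 0.087, adjusted p = 7.84e-04) and so stayed under the fold threshold. Scaled by library totals alone it was 0.64 on the log2 scale and passed both thresholds.

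Erfe (chr1:91366430-91374217, plus strand), the erythroid hormone gene, read 4.75, 3.55, 7.50, 3.93 and 4.26 CPM with vehicle and 15.1, 34.6, 36.8, 32.2 and 20.1 CPM with oxaliplatin. The lowest treated mouse, mouse 1, was still above the highest vehicle mouse, and the treated mice spread more widely than for any of the other 3 called rises. The log2 fold change was 2.53 (SE 0.28, adjusted p = 2.01e-05), or 5.79-fold. Ilkap, on the opposite strand, overlaps Erfe by 357 bases and did not rise with it, at 65.4 CPM with vehicle and 56.3 CPM with oxaliplatin.

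Compared per length of exon, the order of the members changed between the groups. Length here was every base in any annotated exon of a gene, 6419 for Cish and 1989 for Epor. The transcript in use may be shorter, so the order between genes depends on this annotation, while the change of a gene between groups does not. With vehicle, Epor was the highest at 55.4 CPM per kb, above Pim1 at 41.0, Jak2 at 34.8, Stat5b at 28.6, Stat5a at 10.1 and Socs3 at 5.91 CPM per kb. Socs1 (1.84), Erfe (1.70), Cish (0.750) and Socs2 (0.589 CPM per kb) closed the order. With vehicle, the mice of neighbouring genes overlapped for Pim1 and Jak2, for Socs1 and Erfe, and for Cish and Socs2.

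After oxaliplatin Pim1 led at 57.5 CPM per kb and did not overlap with the next gene. Jak2 (29.9), Stat5b (24.3), Epor (23.4) and Socs3 (19.8 CPM per kb) followed, with overlap between neighbours among these 4. Erfe at 9.86 CPM per kb overlapped with Stat5a at 8.30, and Cish reached 4.32, Socs2 2.78 and Socs1 2.49 CPM per kb, of which only the last pair overlapped.

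Erythroid transcripts themselves were much lower in these marrows. Of 15 early erythroid genes 12 were called lower, and their summed level went from between 3815 and 5199 CPM to between 1435 and 2849 CPM. All 18 late erythroid genes were called lower, from between 35532 and 60142 CPM in sum to between 4801 and 11548 CPM. To set the members against erythroid RNA of the same mouse, the mean log2 CPM of each list was subtracted from each gene's log2 CPM, and the same was done for every tested gene. Differences were compared with an exact two-sided permutation test over all splits of the 10 mice into 5 and 5, adjusted over all tested genes, whose smallest p is 0.00794.

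Relative to the early erythroid list, Epor read -1.02 ± 0.049 (SD, n = 5) with vehicle and -0.95 ± 0.15 with oxaliplatin on the log2 scale. The groups overlapped and the change of 0.07 did not pass (exact permutation p = 0.405, adjusted p = 0.434). The other 9 members were all higher relative to that list, each at an adjusted p of 0.0140 by the same exact permutation test and with no overlap. A higher ratio was also called for 67.9% of all genes and a lower one for 1.56%, so the count of 9 is not particular to the members, and the median gene rose by 1.27.

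The size of the shift set the members apart from one another. The list mean was subtracted from every gene of a mouse alike. This order and the percentiles therefore follow the mean log2 CPM changes and carry nothing about erythroid RNA. Cish rose by 3.87, Erfe by 3.82, Socs2 by 3.59 and Socs3 by 3.07 on this log2 ratio scale, at percentiles 97.3 to 98.8 of the shifts of all genes. Socs1 rose by 1.84 and Pim1 by 1.82. Jak2 (1.11), Stat5b (1.08) and Stat5a (1.05) lay a little below the median gene.

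**Figure D2:**
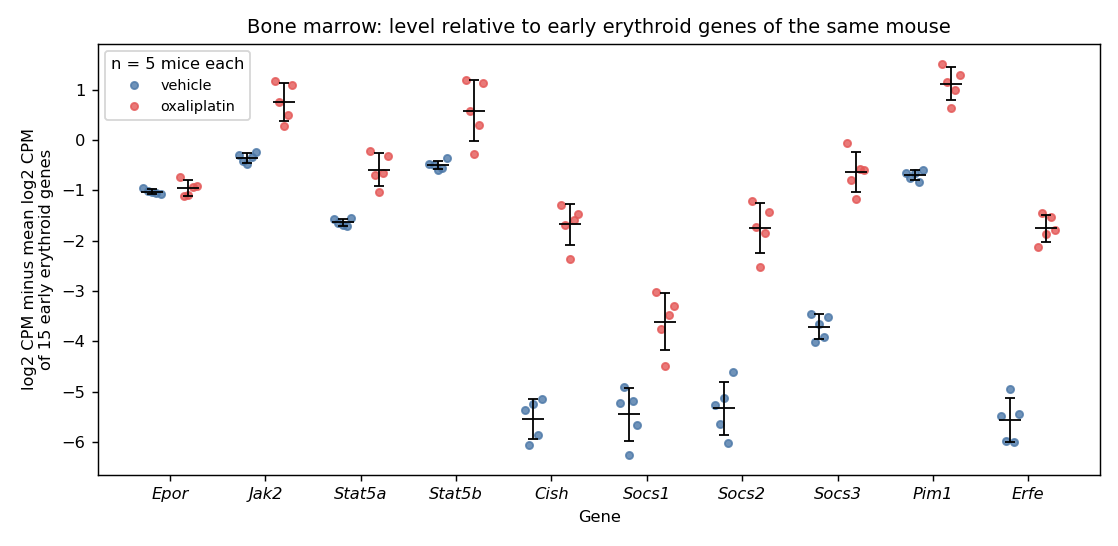
Log2 CPM of each gene minus the mean log2 CPM of 15 early erythroid genes in the same bone marrow library (vertical axis), for 5 vehicle and 5 oxaliplatin mice. Points are mice, and bars give the mean and SD. Epor overlaps between the groups near -1, and the other 9 genes lie higher after oxaliplatin.

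Against the late erythroid list, which fell further, all 10 members had higher ratios, as did 96.2% of all genes. Epor rose by 1.43 there (exact permutation p = 0.00794, adjusted p = 0.00902), where the median gene rose by 2.63. Against Epor itself, whose ratio rose for 68.5% of all genes and fell for 1.83%, Cish, Erfe, Socs2 and Socs3 gained the most of the members, and Socs1 rose by 1.77. On this log2 scale Cish went from -4.52 ± 0.41 to -0.72 ± 0.31, Erfe from -4.55 ± 0.44 to -0.80 ± 0.39, and Socs2 from -4.31 ± 0.54 to -0.79 ± 0.39. Socs3 went from -2.69 ± 0.24 to 0.31 ± 0.27. These ratios are of CPM without length, so they compare each gene's change and not levels between genes. Jak2, Stat5a and Stat5b rose by 1.04, 0.98 and 1.02 relative to Epor. All 9 ratios passed at an adjusted p of 0.0139 by the exact permutation test.

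Genes whose profile over the 10 marrow libraries was most like that of Epor, by the root mean square difference of log2 CPM centred on the vehicle mean among 14648 genes, were Memo1 (0.077), Pnp2, H3c6, Camsap2 and H2ac20 (0.092). Each of these 5 fell with Epor, from -1.18 to -1.31 on the log2 scale. For Cish the nearest profile of all belonged to Socs2 (0.27), followed by Vash1, Slc1a4, Klhl13 and Sfrp1 (0.33). Erfe had Vash1 (0.33) and then Cish (0.36) as its nearest, followed by Egr2, Kcnf1 and Pak6. Socs3 ranked 136 in its distance to Cish, and Epor ranked 13979. These are descriptions over libraries of both groups, so they mostly order genes by the size of their change.

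Markers of several other cell types shifted in the same marrows, where 11.6% of all tested genes were called higher and 11.8% lower. Macrophage genes were higher for 5 of 8, with sums of 1039 to 1464 CPM with vehicle and 1320 to 3005 CPM with oxaliplatin. Megakaryocyte genes were higher for 5 of 8 (1485 to 2291 against 2458 to 3654 CPM) and endothelial genes for 3 of 7 (312 to 390 against 418 to 710 CPM). B cell genes were lower for 9 of 10 (382 to 664 against 114 to 173 CPM). Of 6 T cell genes only 1 was called lower, and their median log2 fold change was 0.09. The T cell sums overlapped (32.1 to 41.5 against 20.3 to 35.6 CPM). None of 12 neutrophil genes was called by edgeR (20023 to 24431 against 10470 to 28280 CPM). None of these markers was at 0 in all marrow libraries. The part of these shifts in the rises of Cish, Socs2, Socs3 and Erfe was not tested.

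Wider pathway lists were read beside the members in marrow, where 23.3% of all tested genes were called either way. Among 12 receptor partners and attenuators, Ptpn11, the phosphatase SHP2, was called higher (log2 fold change 0.59) and Tfr2, a receptor-associated iron sensor, lower (-0.88). Among 18 JAK, STAT, SOCS, PIM and PIAS relatives, only 2 were called, and they were both PIM kinases: Pim3 was higher at 1.76 and Pim2 lower at -0.68. Of 20 genes of the other signalling branches, Irs2 (0.89) and Gab2 (0.63), docking proteins of the PI3 kinase route, were higher, and Foxo3, a transcription factor restrained by that route, was lower at -1.28. The list medians were -0.12, -0.10 and -0.03, near the -0.04 of all genes.

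Of 14 genes listed as responsive to STAT5, 6 were called higher and 2 lower, with a median of 0.21. Among all tested marrow genes, 11.6% were called higher and 11.8% lower. Serpina3g, a protease inhibitor of leukocytes, read 7.98 ± 1.56 CPM with vehicle and 45.7 ± 7.61 CPM with oxaliplatin (log2 fold change 2.52, SE 0.16, adjusted p = 2.09e-07). Ccnd2, cyclin D2, read between 90.9 and 119 CPM with vehicle and between 311 and 555 CPM with oxaliplatin, a log2 fold change of 2.01. Trib3, a pseudokinase gene, was higher at 1.58 from 1.19 CPM. In the other direction, Il2ra, the alpha chain of the interleukin-2 receptor, had a log2 fold change of -2.36, and Bcl2l1, which encodes the erythroid survival protein BCL-XL, fell from 282 ± 31.2 to 127 ± 11.0 CPM (log2 fold change -1.15, adjusted p = 3.17e-06), so the list did not move one way. Bcl2l1 is outside the rule for naming and was added after its values were seen, as the second of the 2 falls.

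Receptors for other ligands use JAK2 and STAT5 too, and of 13 listed, 3 were called higher and 1 lower in marrow, with a median of 0.31. The shares of all tested marrow genes were 11.6% higher and 11.8% lower. The largest step was in Ghr, the growth hormone receptor, at 9.68, 11.1, 11.2, 13.0 and 17.2 CPM with vehicle and 274, 157, 163, 238 and 111 CPM with oxaliplatin. All oxaliplatin mice were several times above all vehicle mice, and the log2 fold change was 3.93 (SE 0.26, adjusted p = 5.13e-07). The 1 fall was Il5ra, the alpha chain of the interleukin-5 receptor, at -1.65. Prlr, the prolactin receptor, also rose, from 0.592 to 4.23 CPM, below the level set for naming a gene and named for that count. Of 6 ligands only Kitl, encoding stem cell factor, was tested in marrow, and it rose from 50.6 ± 6.84 to 117 ± 21.4 CPM (log2 fold change 1.21, adjusted p = 1.84e-05).

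**Figure D3:**
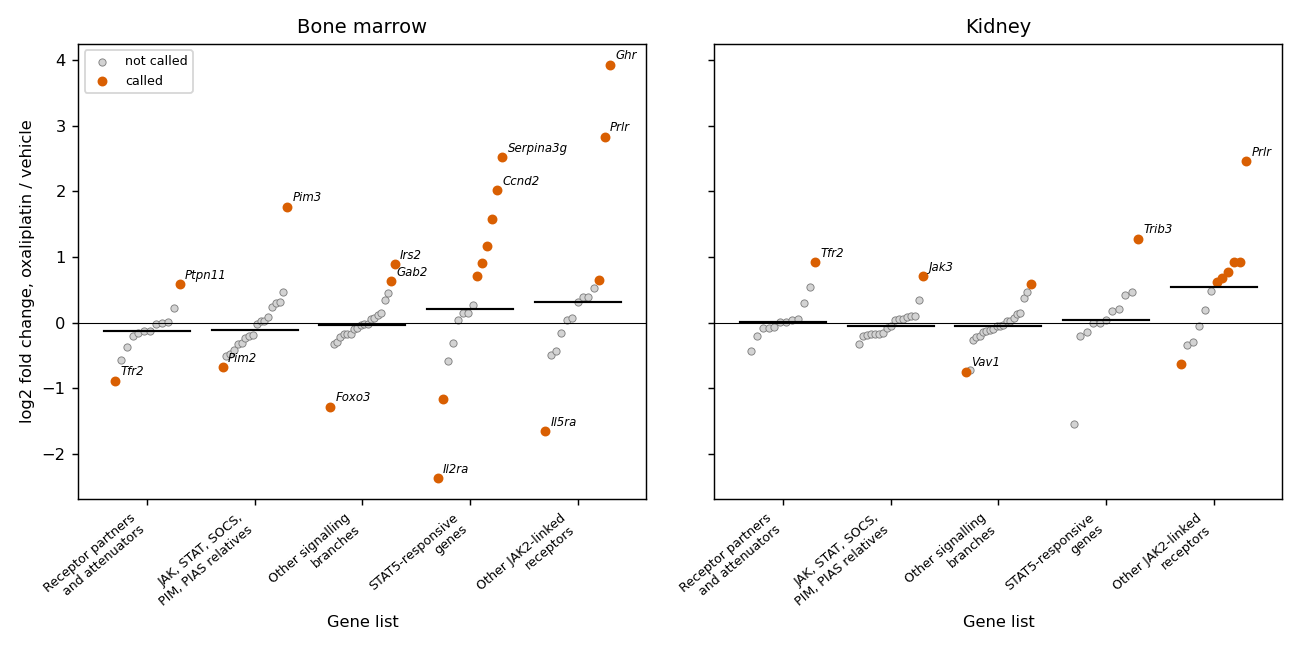
Log2 fold change (oxaliplatin over vehicle) of each tested gene in 5 pathway lists in bone marrow and kidney. Orange points passed both thresholds, grey points did not, and black lines are list medians. Ghr at 3.93 is the highest point in marrow, and Prlr at 2.46 is the highest in kidney.

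In kidney, the source of the hormone, 1 of the members was called. Epo had 2, 0, 6, 0 and 2 counts in the vehicle kidneys and 5738, 838, 2886, 1882 and 7309 counts in the oxaliplatin kidneys. It was the 1 called gene of 3 ligands tested. Among the 10 members Socs3 was called higher, where 7.68% of 19293 tested genes were called higher and 3.81% lower (11.5% either way). Stat5b alone passed just the adjusted p (29.4% of all genes passed it with or without the fold), and 8 members passed neither. Without overlap between groups, 1 member was higher (9.69% of all genes) and none lower (11.0%). The median log2 fold change of the members was 0.03. Scaled by library totals, 2245 genes were called higher and 470 lower in place of 1481 and 735.

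Socs3 read 4.03, 2.90, 4.06, 2.74 and 4.05 CPM with vehicle and 6.89, 5.05, 7.05, 4.95 and 4.35 CPM with oxaliplatin. The groups did not overlap, by a small margin, and the log2 fold change was 0.67 (SE 0.18, adjusted p = 0.00857). Without oxaliplatin mouse 3 it was 0.58 (adjusted p = 0.0250), just under 1.5-fold. Stat5b read 73.3 ± 3.74 and 65.0 ± 3.77 CPM, with a log2 fold change of -0.17 (SE 0.064, adjusted p = 0.0487) and overlapping groups. With library totals alone it was -0.04 (adjusted p = 0.626), and with 1 library left out its adjusted p ran from 0.0402 to 0.127.

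Cish varied more among vehicle kidneys than between groups. Its vehicle values were 9.63, 8.57, 57.8, 43.6 and 29.5 CPM, and its oxaliplatin values were 32.9, 16.7, 35.7, 30.7 and 30.2 CPM. Vehicle mice 1 and 2 were below all treated mice and vehicle mice 3 and 4 above them. The log2 fold change of -0.02 had an SE of 0.54 (adjusted p = 0.980), and 2 SE reached from -1.11 to 1.06.

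Socs2 read 6.61, 5.26, 12.7, 10.4 and 11.5 CPM in vehicle kidneys and 17.2, 10.1, 14.3, 12.4 and 17.2 CPM in treated ones. Vehicle mice 1 and 2 were again the lowest, and the groups overlapped. Its log2 fold change was 0.62 (SE 0.24) and missed the threshold in edgeR (adjusted p = 0.0789), but DESeq2 gave 0.61 (adjusted p = 0.0205). Erfe was scarce in kidney, with 13 to 38 counts per vehicle library and 27 to 67 per treated library, or 0.822 ± 0.374 and 1.30 ± 0.437 CPM (log2 fold change 0.66, SE 0.32, adjusted p = 0.127). Without vehicle mouse 2 it was 0.97 and was called (adjusted p = 0.0286).

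The remaining 5 members of the kidney set did not pass in the main fit. Epor was at 5.79 ± 0.551 and 6.13 ± 0.593 CPM, a log2 fold change of 0.08 with 2 SE from -0.17 to 0.33. Jak2 was at 35.0 and 30.7 CPM (-0.19, adjusted p = 0.0957). In edgeR it passed the adjusted p, under 1.5-fold, with the Y-linked covariate (-0.21, adjusted p = 0.0190). The same held without oxaliplatin mouse 4 (-0.25, adjusted p = 0.0154). Stat5a was at 31.7 and 31.2 CPM (-0.02, adjusted p = 0.890). Socs1 was at 1.49 and 1.37 CPM (-0.12, adjusted p = 0.780), and Pim1 at 9.85 and 11.0 CPM (0.15, adjusted p = 0.419).

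**Figure D4:**
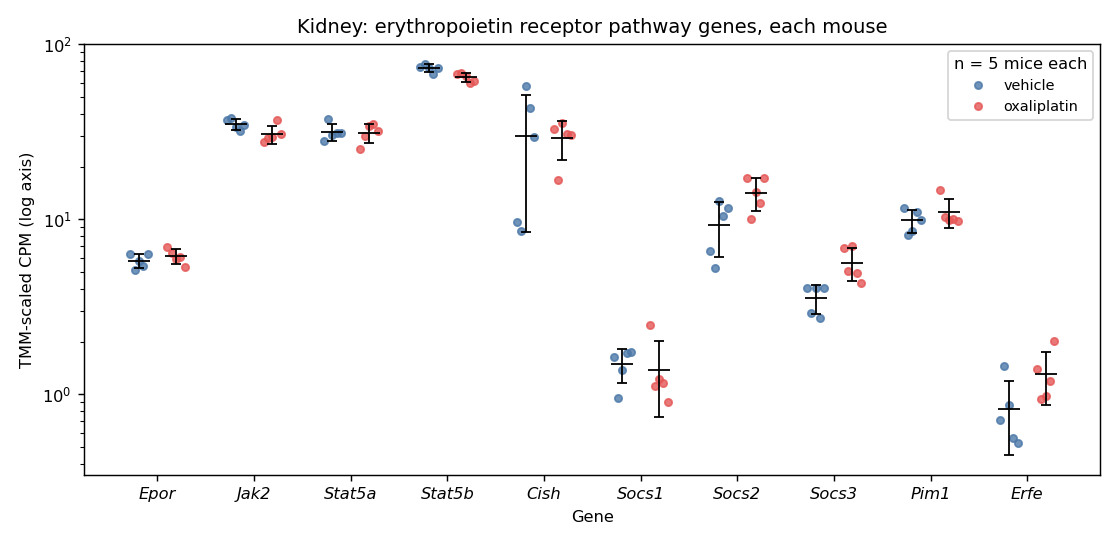
TMM-scaled CPM (log axis) of the 10 genes in each of 5 vehicle and 5 oxaliplatin kidney libraries. Points are mice, and bars give the mean and SD. Socs3 is the only gene whose groups do not overlap, and Cish ranges from 8.57 to 57.8 CPM among vehicle mice.

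Per length of exon, Stat5b led in vehicle kidneys at 13.2 CPM per kb, then Jak2 at 6.96, Cish at 4.64, Stat5a at 4.44, Pim1 at 2.93 and Epor at 2.91 CPM per kb. Socs3 (1.23), Socs2 (0.976), Socs1 (0.512) and Erfe (0.292 CPM per kb) followed. Jak2 overlapped with Cish, Cish with Stat5a, Pim1 with Epor, and neighbours overlapped among the last 4. Epor, first of the 10 in vehicle marrow, was sixth in vehicle kidney, by the same lengths of all annotated exons. Treated kidneys kept this order, from Stat5b at 11.7 to Erfe at 0.463 CPM per kb.

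Apart from the receptors, called genes were few in the kidney pathway lists, as among all tested kidney genes, of which 11.5% were called either way. Tfr2 (0.92, at 1.04 and 1.96 CPM) was the 1 called gene among 12 receptor partners and attenuators, Jak3 (0.71) among 17 relatives and Trib3 (1.28, at 1.09 and 2.64 CPM) among 11 genes responsive to STAT5. Of 20 genes in other branches, Foxo3 was higher at 0.59 and Vav1 lower at -0.75, from 1.94 to 1.15 CPM. Those lists had medians of 0.01, -0.05, 0.04 and -0.05, where all genes had 0.02. Tfr2, Trib3 and Vav1 lay below the level set for naming and are named for these counts.

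Of 12 receptors for other ligands, 6 were called higher and 1 lower in kidney, with a median of 0.55. Among all tested kidney genes, 7.68% were called higher and 3.81% lower. Prlr rose in all treated kidneys, from between 2.42 and 11.6 CPM to between 25.6 and 67.2 CPM (log2 fold change 2.46, SE 0.43, adjusted p = 0.00323). Il5ra (0.93), Csf2rb (0.77) and Lepr (0.68), the leptin receptor, were higher at means under 10 CPM. Ghr was lower, from 705 ± 38.9 to 456 ± 58.4 CPM (log2 fold change -0.63, adjusted p = 5.19e-05), the opposite direction to marrow. The tissue by treatment test described further on covered all genes passing its filter, and its result for Ghr is not given. Ghr is named here as the 1 fall of the list, after its values were seen.

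Kidney cell markers moved as well, where 7.68% of all tested kidney genes were called higher and 3.81% lower. Of 7 proximal tubule genes 3 were called lower, with sums of 24314 to 29015 CPM with vehicle and 14063 to 20427 CPM with oxaliplatin. Podocyte genes were higher for 4 of 5 (296 to 301 against 435 to 529 CPM), and endothelial genes for 2 of 7 (383 to 423 against 499 to 682 CPM). Of 7 tested macrophage genes 4 were called lower and 2 higher, with list sums of 41.1 to 50.7 against 23.4 to 35.6 CPM. Their part in the rise of Socs3 was not tested.

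The difference between tissues was tested as a tissue by treatment interaction over all 20 libraries and 24321 genes. It was called for 5 of the 10 members, where 23.7% of all genes were called. The kidney log2 change minus the marrow log2 change was -2.61 for Cish (SE 0.54, adjusted p = 0.00107) and -1.94 for Erfe (SE 0.44, adjusted p = 0.00183). It was -1.68 for Socs2 (SE 0.30, adjusted p = 1.89e-04) and -1.13 for Socs3 (SE 0.22, adjusted p = 3.71e-04), and 12.8% of all genes were called in that direction. Epor was the reverse, with the kidney change above the marrow change by 1.26 (SE 0.19, adjusted p = 3.64e-05), against 10.8% of all genes. For Jak2, Stat5a, Stat5b, Socs1 and Pim1 the interaction was not called, and the nearest was Pim1 at -0.40 (SE 0.16, adjusted p = 0.0722). Tissues were extracted with different kits, so kit and tissue cannot be told apart in levels, while each change was formed within a tissue.

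**Figure D5:**
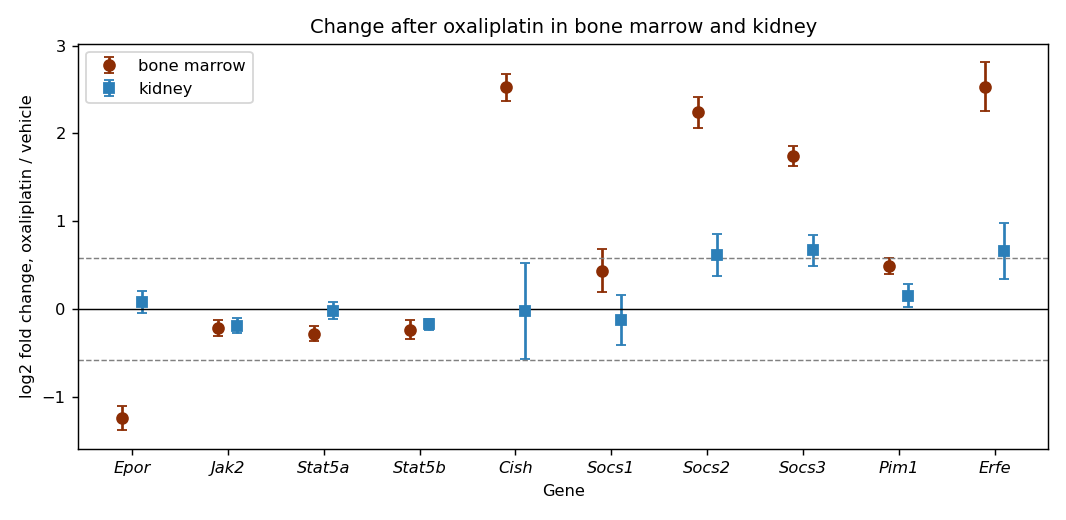
Log2 fold change (oxaliplatin over vehicle) of the 10 genes in bone marrow (circles) and kidney (squares) from edgeR, with SE as bars and dashed lines at 1.5-fold. Cish, Socs2, Socs3 and Erfe lie between 1.74 and 2.53 in marrow, and no kidney value exceeds 0.67.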

How the data were processed

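RNA of 10 bone marrow and 10 kidney libraries was analysed. The deposited values are whole-number counts per gene, left unnormalized by the authors, who used STAR and the annotation of Ensembl release 101. The labels' processing notes also name Subread and Salmon, and strand use is not given in the sources used here. The methods and the sample records describe the library chemistry differently, as a SMARTer kit and as ribosomal RNA removal with random hexamers.

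Of 55774 lines per table, those repeating an identifier and its counts were dropped, as was 1 incomplete line. Each tissue was filtered with filterByExpr (minimum count 10), TMM-scaled and fitted in edgeR 4.0.16 under R 4.3.3 (glmQLFit, robust). No 2 libraries of a group agreed within sampling noise (lowest chi-square per degree of freedom 7.58). Log2 ratios used a prior count of 2. Each edgeR SE was derived as the size of the log2 fold change divided by the square root of the F statistic. Fold changes within 2 SE are given as ranges, which are therefore approximate. Lengths, taken over all annotated exons of a gene, and overlaps came from GENCODE mouse release 21 (GRCm38). Plots used matplotlib 3.10.9 in Python 3.11.15. The edgeR fit of oxaliplatin against vehicle in each tissue and the permutation test were run on simulated data, and the other fits were not.

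Each member was named, and from each pathway list at most 4 called genes per tissue with the largest change and a mean log2 CPM of at least 1; Epo and the 5 nearest profiles of Epor, Cish and Erfe were added. One gene that the rule would name is not reported here. Members and lists were chosen with earlier results of these data known. Alternatives were DESeq2 1.42.0, other scalings and filters, a replicate block, a Y-linked covariate and other fold thresholds. A prior count of 0.5, other summaries of the reference lists, and each library left out were used too. With Y-linked reads in every library, the Y-linked covariate does not separate the sexes.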

Additional observations from a re-analysis of the deposited data

Results flagged for a closer look

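Oxaliplatin kidney mouse 1 stood apart from the other 4 mice of its group for 2 members. It had 14.7 CPM of Pim1, where the others lay between 9.81 and 10.3 CPM, and 2.48 CPM of Socs1, where the others lay between 0.900 and 1.22 CPM. Each gap exceeded Dixon's critical value of 0.71 of the range, and chance flags about 1 in 20 of the 40 groups examined.

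The response to oxaliplatin differed between kidney and marrow, by edgeR's interaction term, for 5 members. Among all 24321 genes tested, 23.7% were called for this term, 12.8% with the kidney change below the marrow change and 10.8% above. The kidney log2 change minus the marrow log2 change was 1.26 for Epor, -2.61 for Cish, -1.94 for Erfe, -1.68 for Socs2 and -1.13 for Socs3.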

How the results depend on the processing

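In marrow the direction and call of all 10 members held under every alternative and with each library left out, except that Pim1 was called when scaled by library totals alone (0.64). Over all marrow genes, testing against 1.5-fold gave 1347 higher and 1383 lower, and a threshold beyond 2-fold gave 1613 and 1618. The marrow ratios kept every call and direction. In kidney the members called higher numbered 2 with DESeq2, with library totals alone and with the replicate block, 0 when tested against 1.5-fold or beyond 2-fold, and 0 to 2 with 1 library left out. The 2 came from Socs3 with Socs2, or with Erfe without vehicle mouse 2; Socs2 was added without vehicle mouse 3 (0.76) or oxaliplatin mouse 2 (0.72), and the 0 came without oxaliplatin mouse 3. Over all kidney genes the counts were 2245 and 470 by library totals, 291 and 163 against 1.5-fold, and 655 and 286 beyond 2-fold.

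Signs turned only for small kidney and interaction values that passed no test. Kidney Cish became 0.12 by library totals, 0.0021 with at least 10 counts in every sample, 0.26 with the replicate block and 0.054 with the Y-linked covariate, and ranged from -0.26 to 0.36 with 1 library left out. Kidney Stat5a became 0.11 by library totals and 0.0050 with at least 10 counts (-0.061 to 0.054 with 1 left out), and Socs1 0.012 by library totals (-0.43 to 0.012). The Jak2 interaction became 0.032 with TMM within tissues, 0.017 by library totals and 0.078 with at least 10 counts (-0.10 to 0.028), and that of Stat5b ran from -0.052 to 0.039. All interaction genes below marrow numbered 2024 with at least 10 counts and 1677 beyond 2-fold. The causes were not tested.

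Mice of equal number are not paired: same-number libraries correlated between -0.12 and 0.23 in marrow and between -0.15 and 0.075 in kidney. Under the replicate block kidney Socs2 was 0.65 (adjusted p = 0.0135) and joined Socs3, no other member changed its call, and Stat5b missed the adjusted p (0.0750). With at most 67 counts per kidney library, Erfe is measured with little precision there. P values measure the spread between 5 mice of a group, and bulk RNA does not say which cells carry a transcript.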

Other observations

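Vehicle kidneys 1 and 2, which had the lowest Cish (9.63 and 8.57 CPM) and the lowest Socs2 (6.61 and 5.26 CPM), had the highest Bcl6, a transcriptional repressor gene known to be restrained by STAT5, at 132 and 143 CPM. The other 3 vehicle kidneys had 17.7, 38.8 and 15.7 CPM of Bcl6, and the 5 oxaliplatin kidneys had between 19.1 and 35.1 CPM. In marrow, Bcl6 lay between 57.0 and 76.0 CPM with vehicle and between 28.8 and 76.3 CPM with oxaliplatin. Bcl6 was chosen after its values were seen, and the split among vehicle kidneys was not tested.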
